A study of Mus musculus with 26 samples.

Results

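The 37 genes described here are homeostatic and identity genes of microglia, the resident macrophages of the brain, taken as a list of symbols and matched to Ensembl identifiers in the deposited count files. All 37 were found among the 52636 genes of the files, and all 37 were among the 21371 genes that passed the filter on low counts and were tested. The list was not chosen by measured values of a contrast, but it was drawn up with earlier results of these data known. Poly(A) RNA of microglia was sequenced in 26 mouse libraries from 7 genotype groups (library totals 37.6 to 63.7 M counts). Grn encodes progranulin, a secreted glycoprotein that reaches lysosomes, and Tmem106b encodes a lysosomal membrane protein. The groups were Tmem106b WT Grn KO (n = 4), Tmem106b WT Grn HET (n = 5), Tmem106b HET Grn KO (n = 3), Tmem106b HET Grn HET (n = 3), Tmem106b HET Grn WT (n = 4), Tmem106b KO Grn WT (n = 4) and Tmem106b WT Grn WT (n = 3). By the labels 14 libraries were female and 12 male, 18 had the dissection Entire and 8 Hemi. These labels were not balanced over the groups. Tmem106b HET Grn HET had 3 Entire and 0 Hemi libraries, and Tmem106b WT Grn HET had 4 female and 1 male. Sex and dissection coincided in Tmem106b HET Grn KO and in Tmem106b HET Grn WT, where Hemi occurred only with males and Entire only with females. They also coincided in Tmem106b WT Grn WT, the other way round, where Hemi occurred only with a female and Entire only with males. Those groups alone cannot tell an effect of sex from an effect of dissection. Age, treatment, the way the cells were isolated, the design of the alleles and whether each library was 1 animal are not given in the sources used here, so the p-values measure only the spread between these libraries.

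Microglia keep a stable identity in the healthy brain through signals such as TGF-beta and the Csf1 receptor and through transcription factors such as Sall1, Irf8 and the Mef2 family. The genes of this state are used to tell microglia from other macrophages, and many of them are known to fall when microglia take up a disease-associated state. In RNA from a cell preparation a low level of such a gene can also come with RNA of other cells, which takes up a share of every library. For that reason each member is given on 2 scales. The first is CPM, a count relative to the library total, after TMM scaling, edgeR's trimmed-mean scaling over all genes. The second rescales each library by the median ratio of 30 pan-leukocyte genes (such as Ptprc, Laptm5, Coro1a, Syk and Ikzf1), which are shared by white blood cells of many kinds and are not particular to a microglial state. RNA from cells that express neither a member nor the pan-leukocyte genes lowers both by 1 common factor, which cancels on the second scale. In bulk libraries fewer microglia and less RNA per microglia cannot be told apart.

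In the libraries without Grn the members were lower than in the libraries with Grn WT, and they did not fall by 1 common factor. Over both Tmem106b backgrounds 33 of the 37 members were lower in Grn KO on the CPM scale, against 7.38% of all genes tested. After the pan-leukocyte scaling 18 members were still lower, against 0.781%, and 1, Fcrls, was higher, against 38.5%. With marker sums of other brain cells as covariates fewer members passed on both scales. Slc2a5 and Sall1 were down most, while Cst3, Irf8, Mef2c, Sparc and Entpd1 moved with the pan-leukocyte genes. In Tmem106b KO Grn WT replicate 2, a library with high neuronal markers, all 37 members were far below the other libraries of its group, and the pan-leukocyte genes were lower there by nearly the same factor.

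The promoters of 3 members from both ends of this range are shown, each with 1 start in the promoter table. They are Slc2a5, the member down most after scaling, Crybb1, the third in that order, and Fcrls, the member that was higher. Sall1, which stood between Slc2a5 and Crybb1, has 3 promoters in the table, which held neither motif described here, and they are not printed. Each is 250 bases before and 50 bases after the gene's start, from RefSeq on GRCm38.p6, 5′ to 3′ on the gene's strand, with motif matches in capitals. Slc2a5 lies at chr4:150119094-150119393 (+), Crybb1 at chr5:112255570-112255869 (+) and Fcrls at chr3:87263475-87263774 (-). The first motif searched was GAGGAA, the PU box that macrophage ETS factors bind. Read from the other strand it is TTCCTC. The second motif was CTATTT, the core that MEF2 factors bind. Read from the other strand it is AAATAG.
Slc2a5: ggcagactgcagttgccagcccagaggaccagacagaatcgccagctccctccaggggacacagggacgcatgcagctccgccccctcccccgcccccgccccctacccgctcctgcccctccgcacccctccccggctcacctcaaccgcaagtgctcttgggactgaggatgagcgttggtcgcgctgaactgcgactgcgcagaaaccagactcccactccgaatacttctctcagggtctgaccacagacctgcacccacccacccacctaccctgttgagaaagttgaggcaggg
Crybb1: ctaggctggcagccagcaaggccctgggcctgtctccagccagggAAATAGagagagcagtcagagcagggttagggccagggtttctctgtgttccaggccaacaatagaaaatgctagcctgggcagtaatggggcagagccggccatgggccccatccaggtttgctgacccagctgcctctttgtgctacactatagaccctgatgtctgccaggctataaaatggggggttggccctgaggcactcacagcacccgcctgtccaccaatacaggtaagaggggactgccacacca
Fcrls: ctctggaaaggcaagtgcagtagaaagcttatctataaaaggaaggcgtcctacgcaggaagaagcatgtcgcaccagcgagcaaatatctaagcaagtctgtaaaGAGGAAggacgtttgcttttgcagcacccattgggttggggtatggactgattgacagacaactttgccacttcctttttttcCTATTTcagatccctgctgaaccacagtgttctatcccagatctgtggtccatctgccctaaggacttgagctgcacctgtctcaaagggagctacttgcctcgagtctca
Crybb1 held a MEF2 core, Fcrls held both motifs and Slc2a5 held neither. Of the 37 members 27 matched the promoter table, some with more than 1 promoter, and a gene was counted when any of its promoters of this length held the motif. The PU box was held by 11 of these 27 genes (40.7%), against 8446 of all 27025 genes in the table (31.3%). The MEF2 core was held by 4 of the 27 (14.8%), against 3707 of all (13.7%). A match describes these letters only and is not evidence of binding.

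Levels per gene length, from the RPKM values that the authors deposited, spanned a wide range among the members in Tmem106b WT Grn WT libraries. Cst3, the cysteine protease inhibitor cystatin C, was highest with 35869 ± 9428 RPKM (SD, n = 3). Selplg followed with 3289 ± 447 RPKM, and Csf1r with 2366 ± 420 RPKM and Tmem119 with 2344 ± 173 RPKM came next and did not differ beyond their spread. Runx1 was lowest with 9.33 ± 0.997 RPKM, below Nav3 with 11.7 ± 2.27 RPKM and Maf with 13.7 ± 4.89 RPKM, whose spreads overlapped. The lowest count of any member in any library was 152, for Lag3. The counting strand was not given in the sources used here. Naa35, on the opposite strand of Golm1, had counts equal to 9.8% of those of Golm1, Gm26542 had 7.8% of those of Ltc4s, and Cask had 5.6% of those of Gpr34, which lies inside it. For the other members each overlapping gene had at most 4.3%.

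Grn itself was at 0 to 16 CPM over the 7 libraries without it, against 824 to 2033 CPM over the 8 Grn HET libraries and 2075 to 4048 CPM over Grn WT libraries of Tmem106b WT or HET. Tmem106b was at 24 to 35.7 CPM over the Tmem106b KO libraries, against 68.7 to 88.6 CPM over the Tmem106b WT Grn WT libraries. Neuron markers (12 genes) summed to between 564 and 7944 CPM with Grn KO and to between 64.2 and 8610 CPM in the other 19. The 2 highest sums were in Tmem106b KO Grn WT replicate 2 (8610 CPM) and Tmem106b HET Grn KO replicate 3 (7944 CPM), both labelled Hemi. A list of 8 medial habenula genes, put together after earlier values had been seen, reached 226 to 1134 CPM with Grn KO, against at most 74.7 CPM in the others. Border macrophage markers reached 470.2 to 1165 CPM with Grn KO, against 459.6 to 1437 CPM in the others, and monocyte markers at most 33.8 CPM anywhere. T and NK cell markers (9 genes) averaged 104 ± 62.6 CPM (SD) in Tmem106b WT Grn KO and 95.5 ± 42.1 CPM in Tmem106b HET Grn KO. The matched Grn WT groups had 35.6 ± 22.4 and 44.7 ± 37.3 CPM, and Tmem106b KO Grn WT had 98.4 ± 71.7 CPM. None of these 9 genes passed in the averaged Grn KO contrast. B cell markers went the other way, at 13.9 and 18.4 CPM against 22.7 and 32.2 CPM. The part of these cells in the scaled values was not tested. The libraries carried the microglial label, and the members Tmem119, Selplg, Cx3cr1 and Sall1 were detected in all 26. Tmem119 and Sall1 were lowest in Tmem106b HET Grn KO replicate 3, at 642 and 26.5 CPM.

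**Figure D1:**
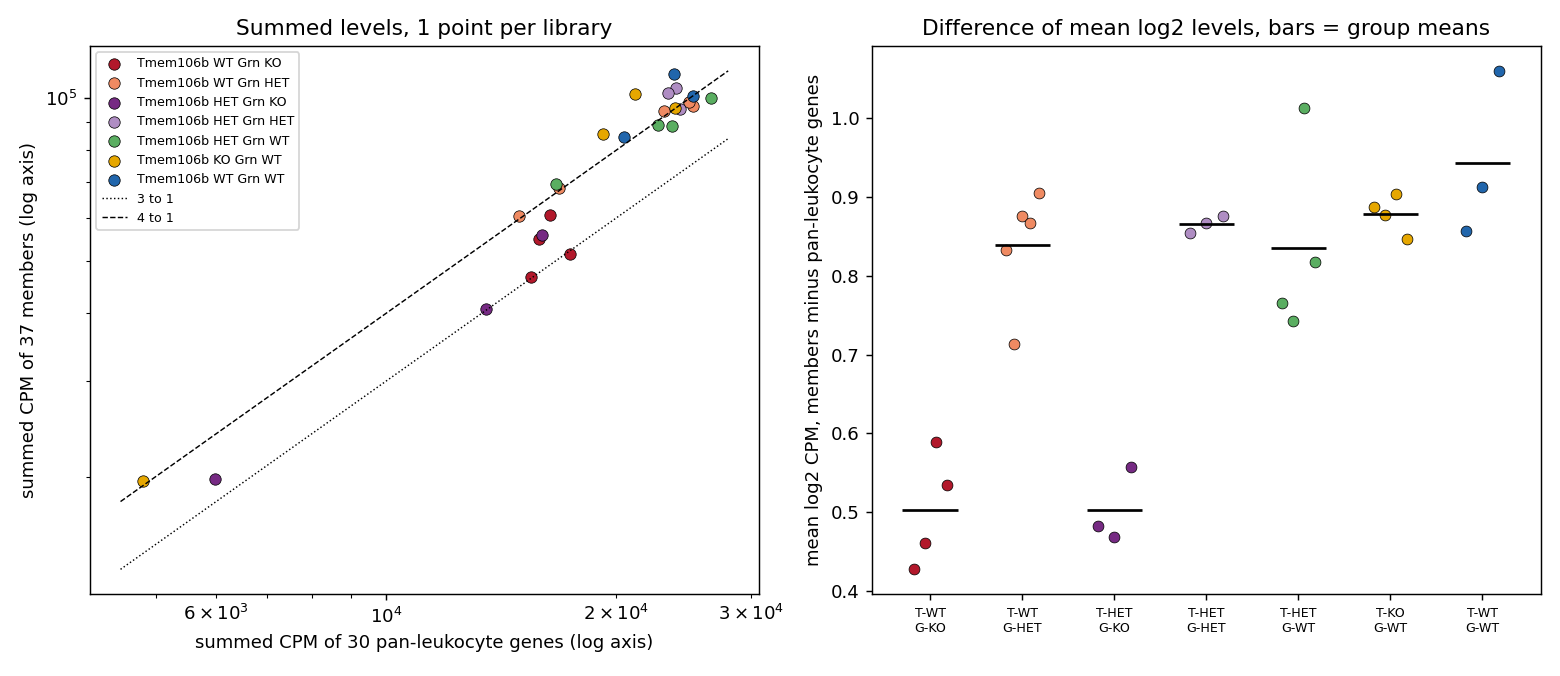
Left, summed CPM of the 37 members (vertical, log axis) against summed CPM of the 30 pan-leukocyte genes (horizontal, log axis), 1 point per library, with lines of constant ratio at 3 to 1 and 4 to 1. Right, the mean log2 level of the members minus that of the pan-leukocyte genes in each library, with bars for group means (T = Tmem106b, G = Grn). The 7 Grn KO libraries lie between 0.43 and 0.59, below the 19 others at 0.71 to 1.06, while Tmem106b KO Grn WT replicate 2, at 19659 CPM for the members, stands at 0.88 like its group.

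The first comparison set the members as a whole against the pan-leukocyte genes, library by library. The members summed to 40708 to 60831 CPM in 6 of the 7 Grn KO libraries with 19847 CPM for Tmem106b HET Grn KO replicate 3. In 18 of the other 19 libraries they summed to 60581 to 110621 CPM, and in Tmem106b KO Grn WT replicate 2 to 19659 CPM. The pan-leukocyte genes were low in the same 2 libraries, at 5980 CPM in the Grn KO one and at 4809 CPM in the Tmem106b KO one, against 13505 to 17405 CPM in the other Grn KO libraries and 14943 to 26592 CPM in all others. Summed members were 2.96 to 3.71 times the pan-leukocyte sum in the 7 Grn KO libraries and 3.74 to 4.79 times in the 19 others. The difference of the mean log2 levels separated them further. It was 0.50 ± 0.07 in Tmem106b WT Grn KO (SD, n = 4) and 0.50 ± 0.05 in Tmem106b HET Grn KO (n = 3). It was 0.84 ± 0.07 in Tmem106b WT Grn HET (n = 5), 0.87 ± 0.01 in Tmem106b HET Grn HET (n = 3), 0.83 ± 0.12 in Tmem106b HET Grn WT (n = 4), 0.88 ± 0.02 in Tmem106b KO Grn WT (n = 4) and 0.94 ± 0.11 in Tmem106b WT Grn WT (n = 3). No Grn KO library reached the range of the others, whereas Tmem106b KO Grn WT replicate 2 stood at 0.88, in the middle of its group. These values describe the members as a sum, and no p is given for a score over a chosen list.

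Within its own group Tmem106b KO Grn WT replicate 2 had all 37 members below the mean of the other 3 libraries on the CPM scale. The median difference was -2.63 (log2), with quartiles of -2.74 and -2.26. All 30 pan-leukocyte genes were below as well, with a median of -2.47. After the pan-leukocyte scaling 28 of the 37 members of that library lay within 0.5 (log2) of the other 3. The 7 above by more than that were Mef2a, Rhob, Bin1, Fscn1, Nav3, Srgap2 and Adgrg1, all of them among the 18 members that neurons or other brain cells are also known to express. The rest of those 18 lay within 0.5, between Sparc at -0.35 and Maf at 0.42. A cause was not tested. Lag3 and Runx1 were below. The library of highest neuron markers thus showed a nearly common factor with exceptions in both directions. In Tmem106b HET Grn KO replicate 3 the median was -1.65 for the members (36 of 37 below) and -1.66 for the pan-leukocyte genes. There 24 members lay within 0.5 of the other 2 libraries after scaling, and the first 7 of the 8 above it were again Nav3, Rhob, Mef2a, Bin1, Srgap2, Fscn1 and Adgrg1. The 5 below by more than 0.5 were Lag3, Sall3, Gpr34, Fcrls (-0.70) and Maf.

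**Figure D2:**
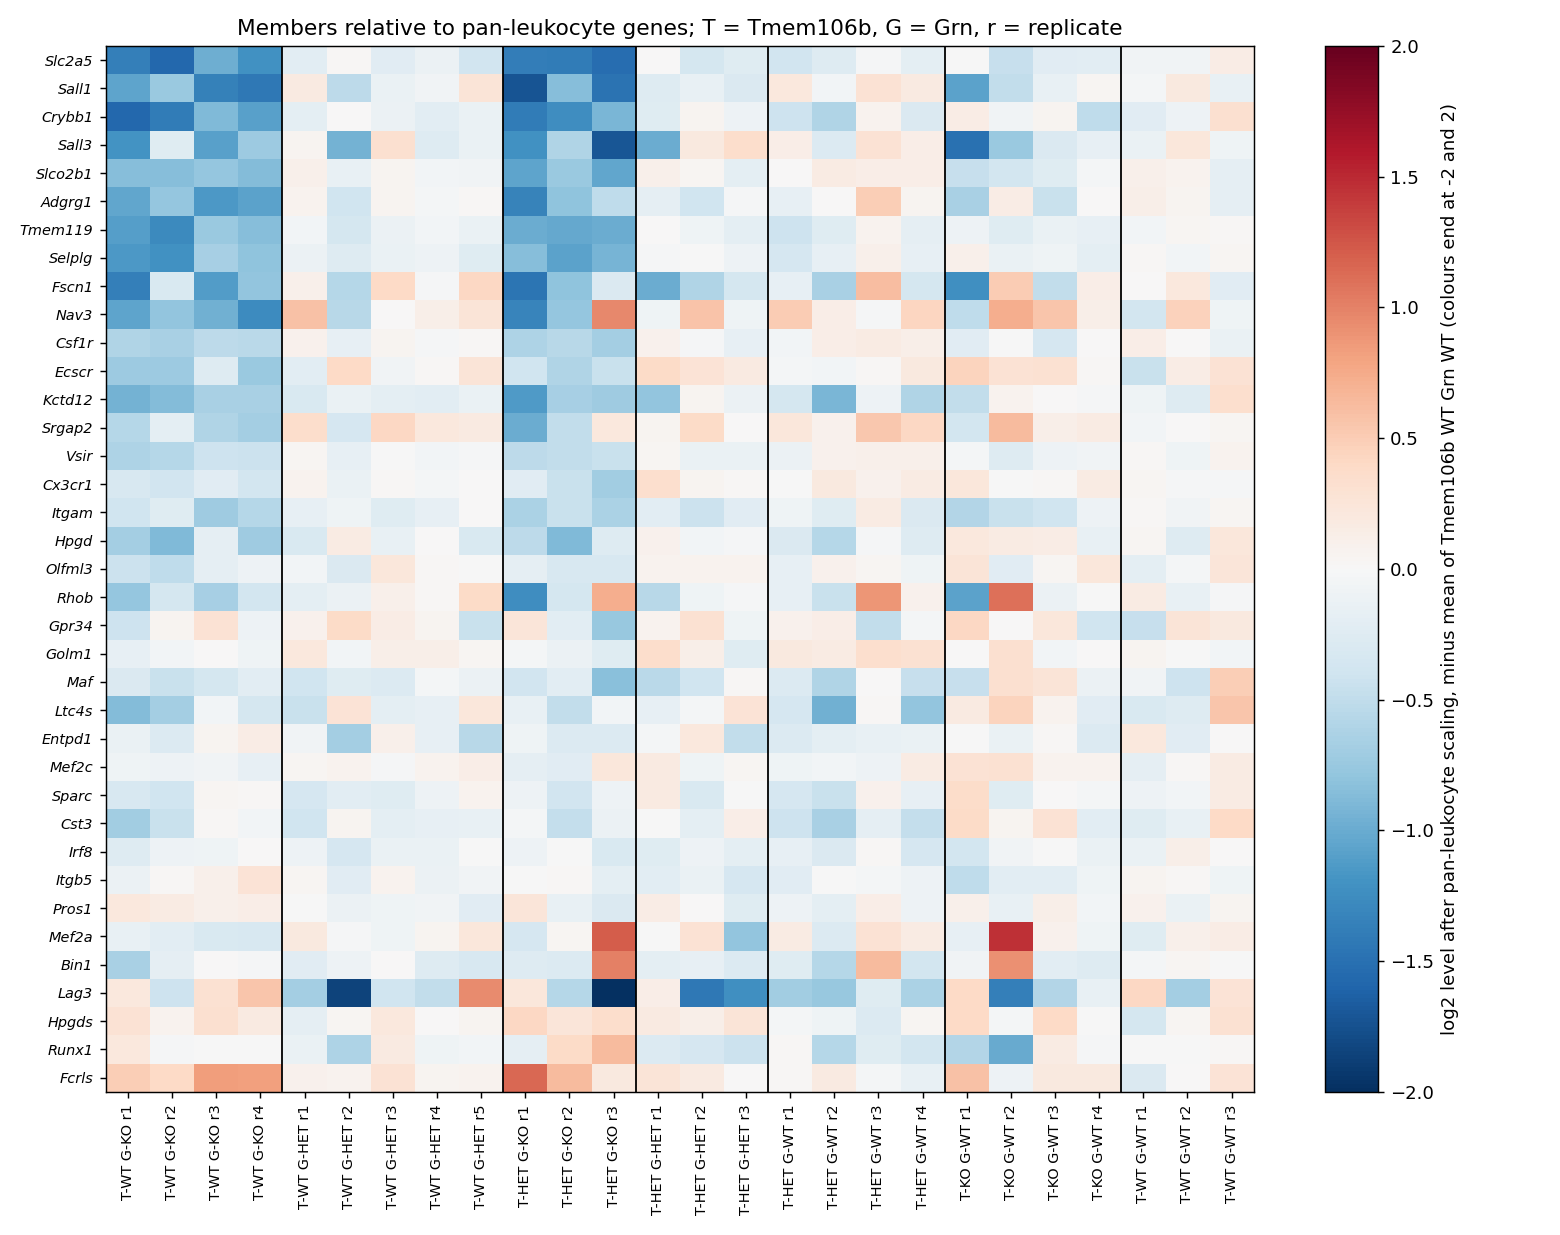
Each cell is a member (rows, ordered by the averaged Grn KO fold change after pan-leukocyte scaling) in 1 library (columns, grouped by genotype; T = Tmem106b, G = Grn, r = replicate), as the log2 level after pan-leukocyte scaling minus the mean of the Tmem106b WT Grn WT libraries, with colours ending at -2 and 2. The upper rows, Slc2a5 to Selplg, are blue in all 7 Grn KO libraries, most lower rows are paler, and Fcrls in the last row is red in the Grn KO libraries.

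The comparison of Grn KO with Grn WT, averaged over Tmem106b WT and Tmem106b HET, asked what losing progranulin did to the members with 7 libraries on each side. On the CPM scale 33 of the 37 members were lower and none was higher (edgeR quasi-likelihood test, adjusted p under 0.05 over all genes), with a median log2 fold change of -1.20 and a range of -2.18 to -0.29. Of all 21371 genes tested 7.38% were lower and 10.7% were higher in the same contrast. The pan-leukocyte genes had 20 of 30 lower and a median of -0.94. After the pan-leukocyte scaling 18 members were lower, 1 was higher and 18 did not pass, with a median of -0.30 and a range of -1.27 to 0.57. On that scale 0.781% of all genes were lower and 38.5% higher, and the median of all genes was 0.97, against 0.06 on the CPM scale, so a value there is relative to the pan-leukocyte genes and not to all genes. The pan-leukocyte genes then had a median of -0.06, with 4 lower and 6 higher of 30. Of the 18 lower members 12 passed without each library in turn. The 6 that lost the call without at least 1 library were Fscn1, Hpgd, Kctd12, Olfml3, Sall3 and Srgap2. Of the 18, 7 passed in all 19 settings run, which were Crybb1, Csf1r, Sall1, Selplg, Slc2a5, Slco2b1 and Tmem119. With marker sums of other brain cells as covariates 7 members passed in place of 19, and on the CPM scale 4 in place of 33. Neuron markers were higher with Grn KO in the same averaged contrast (12 of 12, median log2 fold change 2.88). By background, 0 of 12 passed with Tmem106b WT (median 2.23) and 9 with Tmem106b HET (median 3.45). The habenula genes had 8 of 8 higher (median 7.38), with 1 passing in Tmem106b WT and 7 in Tmem106b HET. That list was put together after earlier values had been seen, so its rise is not an independent result. The part of both lists in the members' values was not tested beyond these settings.

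**Figure D3:**
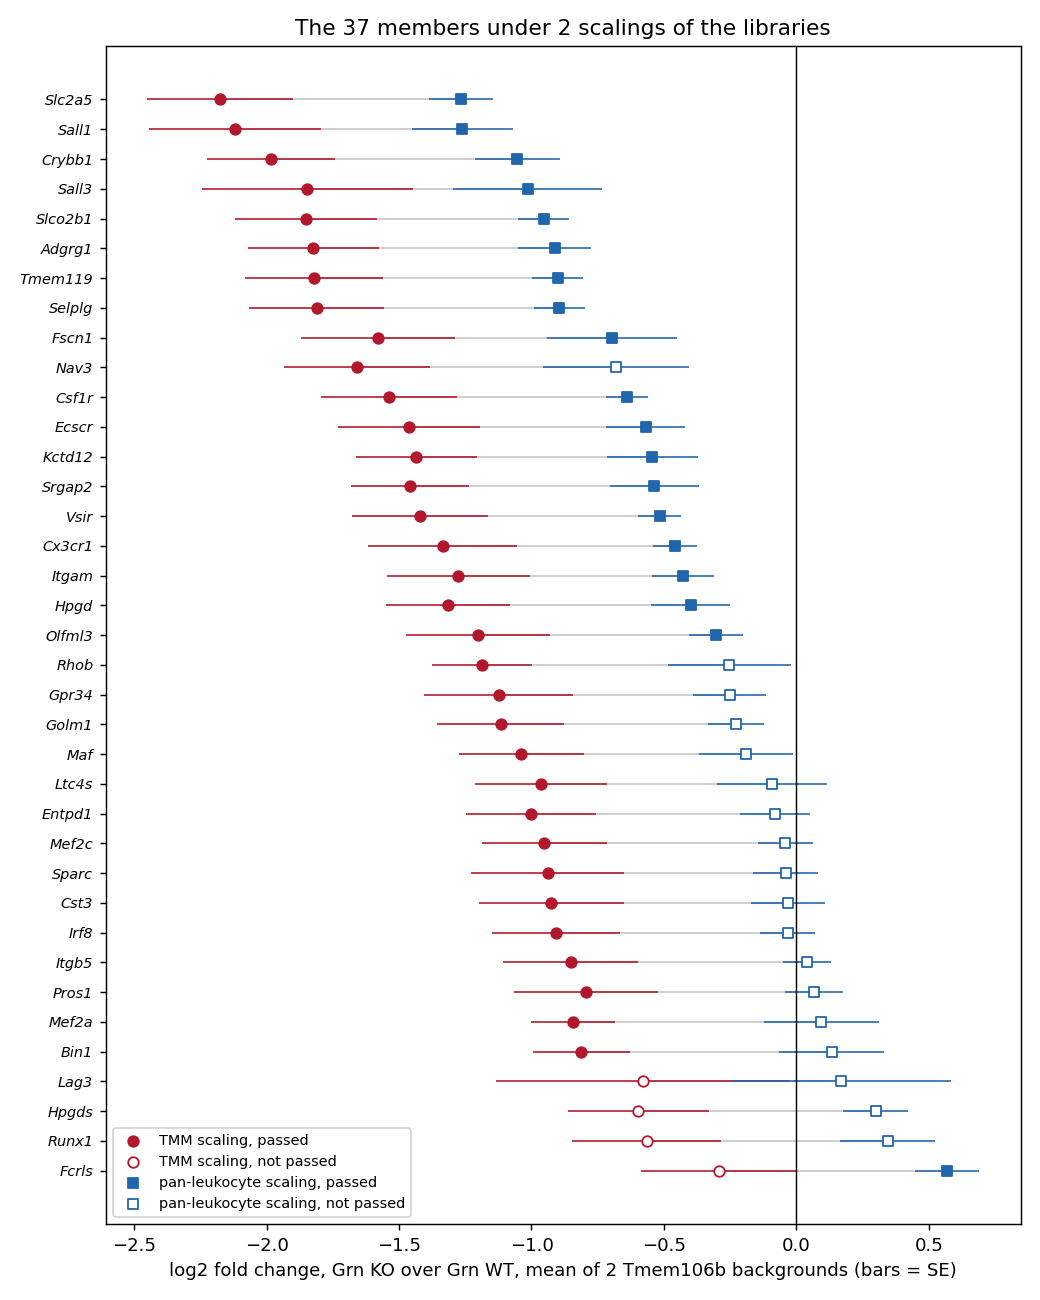
Log2 fold changes of the 37 members (rows) in Grn KO over Grn WT, averaged over the 2 Tmem106b backgrounds, on the CPM scale with TMM scaling (circles) and after pan-leukocyte scaling (squares). Bars are standard errors and filled symbols passed at an adjusted p under 0.05. All circles lie below 0, while the squares run from -1.27 (Slc2a5) to 0.57 (Fcrls).

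Of the 12 surface receptors and adhesion proteins, 10 were lower in Grn KO on the CPM scale, against 7.38% of all genes. After the pan-leukocyte scaling 8 were lower, against 0.781%. Adgrg1 encodes GPR56, an adhesion G protein-coupled receptor. It stood at 501, 463, 433 and 436 CPM in Tmem106b WT Grn KO libraries and at 371, 372 and 173 CPM in Tmem106b HET Grn KO libraries. In Grn HET libraries it stood at 1408, 539, 1335, 1182 and 830.3 CPM with Tmem106b WT and at 1187, 969.6 and 1369.9 CPM with Tmem106b HET. With Grn WT it stood at 1108, 1525, 1112 and 1201 CPM in Tmem106b HET, at 772, 205, 656 and 1282 CPM in Tmem106b KO and at 1565, 1029 and 1149.8 CPM in Tmem106b WT. All 7 Grn KO libraries were below every library except Tmem106b KO Grn WT replicate 2. The averaged log2 fold change was -1.82 ± 0.25 (SE; edgeR adjusted p = 0.000149) and after scaling -0.91 ± 0.14 (adjusted p = 0.000184). The scaled call was lost with marker sums as covariates (edgeR adjusted p = 0.0526).

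Selplg encodes PSGL-1, a ligand of selectins. Its levels were 2777, 2055, 3635 and 3143 CPM in Tmem106b WT Grn KO and 3135, 1859.6 and 773 CPM in Tmem106b HET Grn KO. With Grn HET, the values were 7421, 3561, 7068, 6778 and 4163 CPM with Tmem106b WT and 7964, 7619 and 7737 CPM with Tmem106b HET. With Grn WT the levels were 5937, 8156, 5072 and 6223 CPM in Tmem106b HET, 7791, 1009, 5073 and 6692 CPM in Tmem106b KO, and 8748, 5678 and 8052 CPM in Tmem106b WT. Grn KO overlapped Grn HET only through replicate 2 of Tmem106b WT Grn HET, whose neuron markers were at 3242 CPM, and no Grn WT library of Tmem106b WT or HET was reached. Tmem106b KO Grn WT replicate 2 lay within the Grn KO range. After the pan-leukocyte scaling the Grn KO libraries lay at 2462 to 3599.7, the Grn HET libraries at 4770.3 to 5637 and the Grn WT libraries of both backgrounds at 4519.6 to 6102, with no overlap (log2 fold change -0.90 ± 0.10, SE, edgeR adjusted p = 4.59e-06).

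Tmem119, a membrane protein used as the marker of microglia, had 2490.2, 1700.2, 2987 and 2633 CPM in Tmem106b WT Grn KO and 2445, 1671 and 642 CPM in Tmem106b HET Grn KO. Libraries with 1 Grn allele had 6691, 2869, 6195, 6042 and 3859 CPM with Tmem106b WT, and 7077, 6263 and 6274 CPM with Tmem106b HET. With intact Grn, the values were 4875, 6674, 4280.1 and 5318 CPM with Tmem106b HET, 5863, 807, 4249.6 and 5887 CPM with Tmem106b KO, and 7140.3, 5265 and 6887 CPM with Tmem106b WT. After scaling, the lowest library of the Tmem106b KO group, at 807 CPM, came to 4148, beside 4613, 4492 and 4394 in the other 3. The Grn KO libraries came to 2037 to 2958, and the Grn WT libraries of both other backgrounds to 3711 to 5149.9. Its log2 fold change on that scale was -0.90 ± 0.10 (SE; edgeR adjusted p = 3.98e-06), a 1.87-fold lower level.

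Csf1r, the receptor that microglia need to survive, fell by 0.64 ± 0.08 (log2, SE) after scaling, with an edgeR adjusted p of 1.73e-05, and ranged over 6724 to 7438 in Grn KO libraries, 9575 to 11446 in Grn HET libraries and 9764 to 12005 in Grn WT libraries of Tmem106b WT or HET. The Tmem106b KO Grn WT libraries stood at 8476 to 10853. The other surface members lower after scaling were Ecscr, a receptor-associated protein named from endothelial cells (log2 fold change -0.57), Vsir, the immune checkpoint VISTA (-0.52), Cx3cr1, the fractalkine receptor (-0.46) and Itgam, the integrin chain CD11b (-0.43). Ecscr, Vsir, Cx3cr1 and Itgam all lost the call with marker sums as covariates. Cx3cr1 on the CPM scale fell by 1.34, and the pan-leukocyte genes had a median of -0.94 there. Gpr34, a receptor for lysophosphatidylserine, passed on the CPM scale (-1.12) and not after scaling (-0.25 ± 0.14). Itgb5, an integrin beta chain, passed on the CPM scale (-0.85) and had 0.04 ± 0.09 after scaling, without passing.

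Fcrls, a scavenger-type relative of Fc receptors, was the 1 member that was higher in Grn KO after scaling, where 38.5% of all genes were higher. On the CPM scale it stood at 2615, 1898, 3106 and 2944 CPM in Tmem106b WT Grn KO and at 3792, 1837 and 511 CPM in Tmem106b HET Grn KO. In Grn HET they read 2579, 1350.2, 2859, 2285 and 1568 CPM with Tmem106b WT, and 2927, 2647 and 2534 CPM with Tmem106b HET. Libraries of Grn WT had 2307, 3113, 1396 and 1905 CPM with Tmem106b HET, 3282, 313, 1872 and 2639.8 CPM with Tmem106b KO, and 2135, 1809 and 2881 CPM with Tmem106b WT. These ranges overlapped throughout and the difference did not pass (log2 fold change -0.29 ± 0.29, edgeR adjusted p = 0.531). After scaling Fcrls had 2419, 2274, 3076 and 3061 in Tmem106b WT Grn KO, against 1410.5, 1742 and 2089 in Tmem106b WT Grn WT. In the other background it had 3821, 2665 and 1966 in Tmem106b HET Grn KO, against 1756, 1949, 1679.5 and 1563 in Tmem106b HET Grn WT. Grn KO and Grn WT did not overlap within either background. The Grn HET libraries reached 2054 with Tmem106b HET and 2106 with Tmem106b WT, and Tmem106b KO Grn WT replicate 1 stood at 2582, all within the range of the 7 Grn KO libraries. The averaged log2 fold change was 0.57 ± 0.12 (SE, edgeR adjusted p = 0.0021), a 1.48-fold higher level, and the call was lost with marker sums as covariates (edgeR adjusted p = 0.0888).

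Lag3, an inhibitory receptor for MHC class II, was low and variable, at 56.7, 28.3, 56.7 and 63.9 CPM in Tmem106b WT Grn KO and 52.7, 20.9 and 2.61 CPM in Tmem106b HET Grn KO. In Grn HET libraries it had 39.6, 9.03, 46.5, 40.6 and 75.1 CPM with Tmem106b WT and 70.7, 22.2 and 27.8 CPM with Tmem106b HET. In Grn WT they read 36.5, 42.2, 31.7 and 35.2 CPM with Tmem106b HET, 75.8, 3.33, 28.2 and 54.7 CPM with Tmem106b KO, and 90.9, 29 and 75.2 CPM with Tmem106b WT. The groups overlapped, and neither scale gave a difference that passed (-0.58 ± 0.55 on the CPM scale and 0.17 ± 0.42 after scaling).

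**Figure D4:**
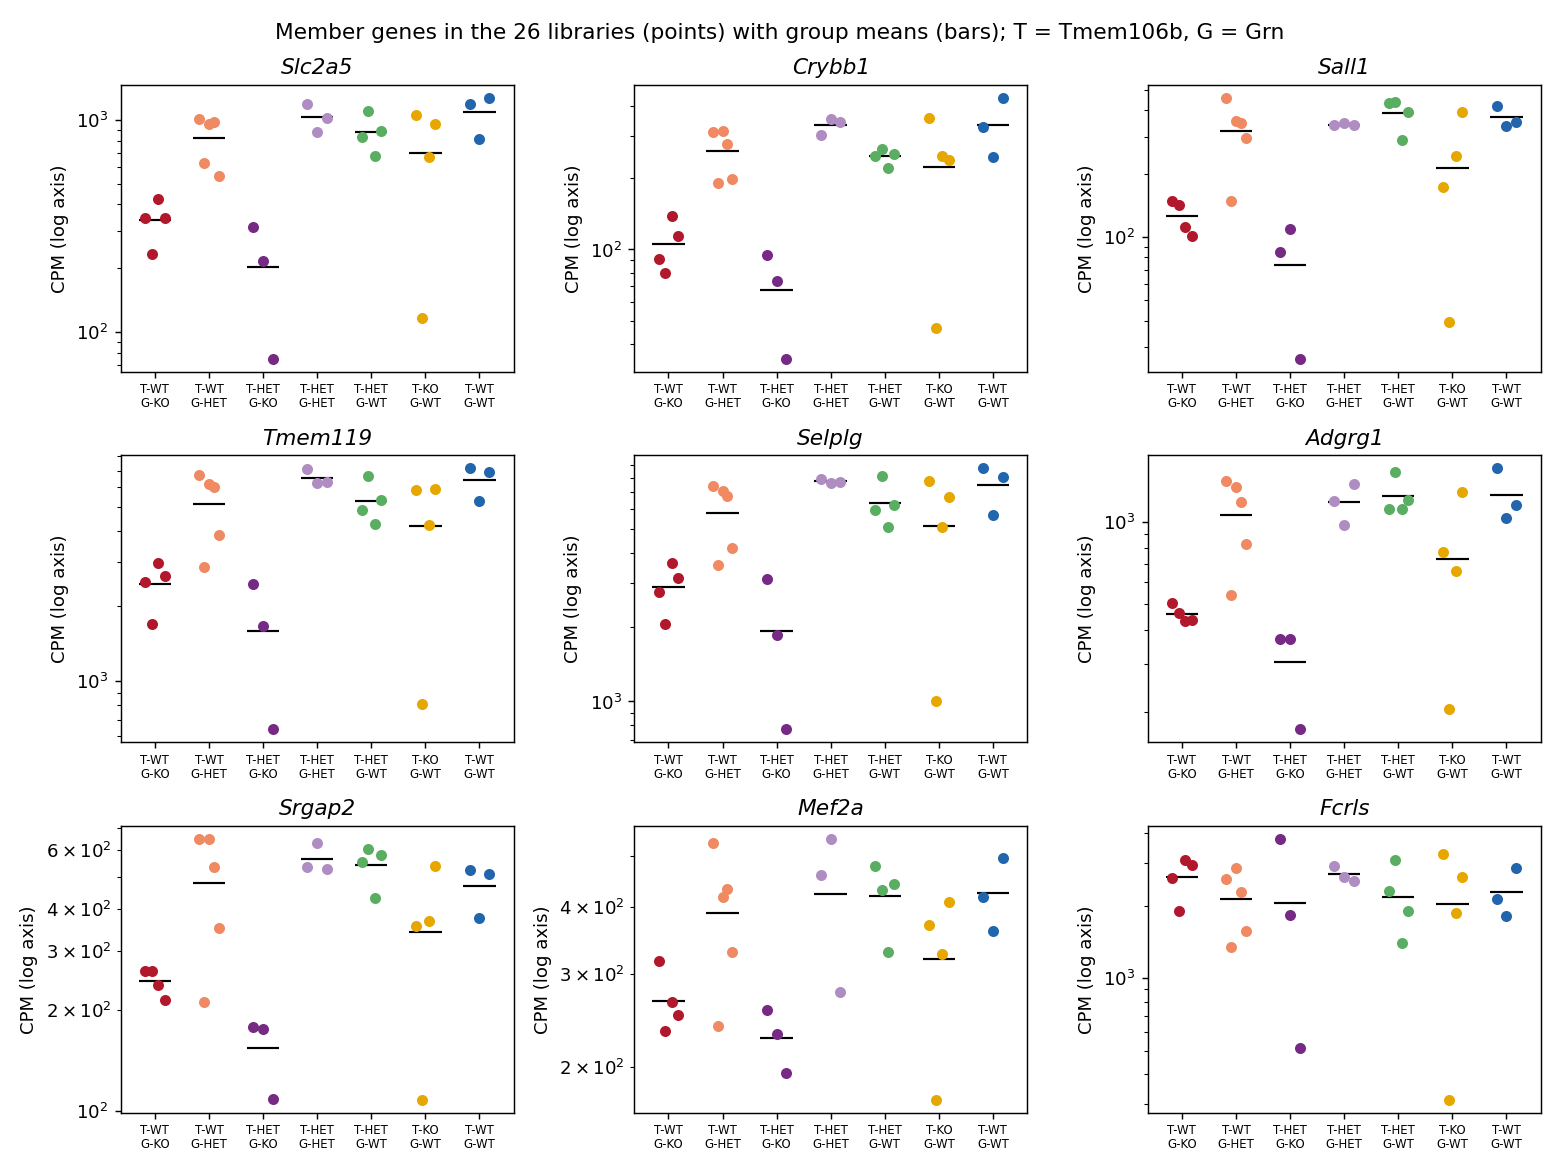
CPM (log axis) of 9 members in the 26 libraries (points) with group means (bars), groups from Tmem106b WT Grn KO at the left to Tmem106b WT Grn WT at the right (T = Tmem106b, G = Grn). Slc2a5 is at 74.9 to 423 CPM wherever Grn is absent, and the 1 low point of the Tmem106b KO group, replicate 2, recurs in every panel.

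Among the 7 transcription factors 6 were lower on the CPM scale, against 7.38% of all genes. After scaling only Sall1 and Sall3 were, against 0.781% of all genes. Sall1, a zinc-finger repressor that maintains microglial identity, had 148, 141, 112 and 102 CPM in Tmem106b WT Grn KO and 84.8, 109 and 26.5 CPM in Tmem106b HET Grn KO. Grn HET libraries had 458, 148, 354, 347 and 294 CPM with Tmem106b WT and 339, 348 and 340.0 CPM with Tmem106b HET. Grn WT libraries had 434, 439, 288 and 393 CPM with Tmem106b HET, 172, 39.4, 244 and 392 CPM with Tmem106b KO, and 419, 338 and 353 CPM with Tmem106b WT. After scaling the Grn KO libraries reached at most 169, below the lowest Grn HET library at 199 and the lowest Grn WT library of both backgrounds at 256, while Tmem106b KO Grn WT replicate 1 stood at 135. The averaged log2 fold change was -2.12 ± 0.33 (SE, edgeR adjusted p = 0.000378) and -1.26 ± 0.19 after scaling (adjusted p = 0.000183).

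Sall3, the relative of Sall1, was at 30.3 to 84.8 after scaling in Grn KO libraries, against 82.8 to 122 in Grn WT libraries of both backgrounds, so the ranges overlapped at their ends. Sall3 was also at 50.4 to 128 in Grn HET libraries and at 35.4 to 89.4 in Tmem106b KO Grn WT libraries. Both ranges overlapped that of Grn KO. The log2 fold change of Sall3 was -1.01 ± 0.28 (SE, edgeR adjusted p = 0.00953), a call lost with marker sums, with Entire libraries only and in 2 of 14 fits without 1 library each. Mef2a, a MADS-box factor that neurons also express, had 316, 234, 265 and 250.5 CPM in Tmem106b WT Grn KO and 256, 231 and 195 CPM in Tmem106b HET Grn KO. For Grn HET the values stood at 528, 239, 418, 433 and 329 CPM with Tmem106b WT and 459, 538 and 276 CPM with Tmem106b HET. For Grn WT the values stood at 478, 430.4, 329.6 and 443 CPM with Tmem106b HET, 370.1, 174, 326 and 409 CPM with Tmem106b KO, and 418, 361 and 495 CPM with Tmem106b WT. It was lower on the CPM scale (-0.84 ± 0.16, adjusted p = 0.00153) with a sign that turned after scaling (0.09 ± 0.22, edgeR adjusted p = 0.754). Its scaled level was 749.9 in Tmem106b HET Grn KO replicate 3 and 892 in Tmem106b KO Grn WT replicate 2, the 2 libraries of highest neuron markers, and at most 398 elsewhere.

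The remaining factors did not pass after scaling. Mef2c, which acts in microglia and in neurons, was at 288 to 392 after scaling in Grn KO libraries, against 296 to 378 in Grn WT libraries of both backgrounds (-0.04 ± 0.10). Irf8, needed for microglial development, was at 599.7 to 742, against 584 to 802 (-0.03 ± 0.10). Maf, a factor of mature macrophages, had -0.19 ± 0.18 and did not pass. Runx1, a factor of blood and early microglial development, had 106, 69.6, 85.4 and 80.9 CPM in Tmem106b WT Grn KO and 74.1, 76.2 and 34.5 CPM in Tmem106b HET Grn KO. Under Grn HET the levels came to 109, 41.2, 130.4, 103 and 70.6 CPM with Tmem106b WT and 101, 91.1 and 92.1 CPM with Tmem106b HET. Under Grn WT the levels came to 114, 90.9, 59.7 and 80.3 CPM with Tmem106b HET, 71.5, 8.16, 90.4 and 112 CPM with Tmem106b KO, and 128, 87.8 and 118 CPM with Tmem106b WT. Its groups overlapped, and it passed on neither scale (-0.56 ± 0.28, and 0.35 ± 0.18 after scaling).

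Among the 6 transporters and enzymes 5 were lower on the CPM scale, against 7.38% of all genes, and 3 after scaling, against 0.781%. Slc2a5, the fructose transporter GLUT5, had 345, 233, 423 and 343 CPM in Tmem106b WT Grn KO and 313, 216 and 74.9 CPM in Tmem106b HET Grn KO. With Grn HET, the values were 1015, 628, 961, 980.1 and 545 CPM with Tmem106b WT and 1185, 878 and 1021 CPM with Tmem106b HET. With intact Grn, the values were 831, 1103, 679 and 883 CPM with Tmem106b HET, 1051, 117, 672 and 959.9 CPM with Tmem106b KO, and 1187, 815 and 1270.1 CPM with Tmem106b WT. Every Grn KO library was below every other library but Tmem106b KO Grn WT replicate 2, which after scaling stood at 599, beside 827, 710.2 and 716 in its group. Scaled levels were 279.7 to 419 in Grn KO, 633 to 841 in Grn HET and 633 to 921 in Grn WT of both backgrounds. Slc2a5 was 4.52-fold lower on the CPM scale (log2 -2.18 ± 0.27, edgeR adjusted p = 8.89e-05) and 2.40-fold lower after scaling (-1.27 ± 0.12, adjusted p = 9.45e-07).

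Slco2b1, an organic anion transporter, had 923, 716, 908 and 810.3 CPM in Tmem106b WT Grn KO and 737, 636 and 195 CPM in Tmem106b HET Grn KO. Libraries with 1 Grn allele had 2335, 1036, 2179, 1898 and 1269 CPM with Tmem106b WT and 2360.3, 2136 and 1968 CPM with Tmem106b HET. Libraries of Grn WT had 2040.1, 2752, 1409 and 2068 CPM with Tmem106b HET, 1429, 233, 1231 and 2003 CPM with Tmem106b KO, and 2506, 1689.7 and 1885 CPM with Tmem106b WT. Its scaled levels were among the tightest, at 743 to 922 in Grn KO, 1347 to 1656 in Grn HET and 1366 to 1723 in Grn WT of both backgrounds (-0.95 ± 0.10, edgeR adjusted p = 2.3e-06). The Tmem106b KO Grn WT libraries stood at 1124 to 1495, above the Grn KO range and in part below the other ranges. Hpgd, which inactivates prostaglandins, was the third that was lower after scaling (-0.40 ± 0.15, edgeR adjusted p = 0.0388). That call held in 5 of 14 fits without 1 library each, and was lost without covariates and with marker sums. Entpd1, the ectonucleotidase CD39, and Ltc4s, which makes leukotriene C4, passed on the CPM scale only and had -0.08 and -0.09 after scaling. Hpgds, which makes prostaglandin D2, passed on neither scale (-0.60 ± 0.27, and 0.30 ± 0.12 after scaling, edgeR adjusted p = 0.0603).

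All 4 secreted members were lower on the CPM scale, against 7.38% of all genes, and 1 of them, Olfml3, after scaling, against 0.781%. Olfml3, an olfactomedin-like matrix protein, had 1244, 909, 1376 and 1378 CPM in Tmem106b WT Grn KO and 1349, 855 and 322 CPM in Tmem106b HET Grn KO. In Grn HET they read 2109.7, 942, 2443, 2016 and 1317 CPM with Tmem106b WT and 2317, 2183 and 2379 CPM with Tmem106b HET. In Grn WT they read 1819, 2623, 1318 and 1777 CPM with Tmem106b HET, 2353, 258, 1499 and 2428 CPM with Tmem106b KO, and 2033, 1568 and 2508 CPM with Tmem106b WT. The ranges overlapped, and the scaled difference was small (-0.30 ± 0.10, edgeR adjusted p = 0.0259). It passed in 10 of 14 fits without 1 library each, and not without covariates, with marker sums or with Entire libraries only. Cst3 had 18989, 17359, 29119.7 and 26199 CPM in Tmem106b WT Grn KO and 27321, 14020.5 and 6823 CPM in Tmem106b HET Grn KO. Grn HET libraries had 30290.3, 21948, 33466, 32220.2 and 22092 CPM with Tmem106b WT and 40340.0, 33327 and 45243 CPM with Tmem106b HET. Grn WT libraries had 27788, 28809.7, 20811 and 24949 CPM with Tmem106b HET, 47128, 5692, 32797 and 32806 CPM with Tmem106b KO, and 36199, 26538 and 51321 CPM with Tmem106b WT. Cst3 passed on the CPM scale (-0.93 ± 0.27, adjusted p = 0.0243) and had -0.03 ± 0.14 after scaling, where its ranges overlapped. Sparc, a matrix-associated glycoprotein (-0.94, and -0.04 after scaling), and Pros1, the ligand protein S of TAM receptors (-0.79, and 0.07 after scaling), did the same.

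The 8 cytoskeletal, trafficking and other members were all lower on the CPM scale, against 7.38% of all genes. After scaling 4 of them were lower, against 0.781%. Crybb1, a beta-crystallin known in microglia from development, had 91.2, 79.7, 138 and 113 CPM in Tmem106b WT Grn KO and 94.4, 73.3 and 34.7 CPM in Tmem106b HET Grn KO. For Grn HET the values stood at 312, 190.1, 314, 278 and 198 CPM with Tmem106b WT and 305, 355 and 344 CPM with Tmem106b HET. For Grn WT the values stood at 247, 265, 221 and 253 CPM with Tmem106b HET, 356, 46.8, 247 and 238 CPM with Tmem106b KO, and 328, 245 and 434 CPM with Tmem106b WT. Every Grn KO library was below all libraries with Grn HET or with Grn WT in Tmem106b WT or HET. The log2 fold change was -1.98 ± 0.24 (edgeR adjusted p = 6.02e-05) and -1.05 ± 0.16 after scaling (adjusted p = 0.000186).

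Srgap2, which shapes membranes and actin and is known for its part in neurons, had 261, 261, 238 and 215 CPM in Tmem106b WT Grn KO and 179, 176 and 109 CPM in Tmem106b HET Grn KO. Under Grn HET the levels came to 649, 212, 648, 534 and 352 CPM with Tmem106b WT and 534, 634 and 528 CPM with Tmem106b HET. Under Grn WT the levels came to 555, 607, 433 and 583 CPM with Tmem106b HET, 356, 108, 369.5 and 537 CPM with Tmem106b KO, and 525, 376 and 510.0 CPM with Tmem106b WT. It was lower on both scales (-1.46 ± 0.22, and -0.54 ± 0.17 after scaling, edgeR adjusted p = 0.0177), with scaled ranges that overlapped through Tmem106b HET Grn KO replicate 3 at 418. Fscn1, an actin-bundling protein (-0.70 after scaling), and Kctd12, an auxiliary subunit of GABA-B receptors (-0.54 after scaling), were lower as well. Without 1 library each, Fscn1 passed in 6 of 14 fits and Kctd12 in 11 of 14, and Fscn1, Kctd12 and Srgap2 all lost the call without covariates and with marker sums. Nav3, a neuron navigator family protein, had -0.68 ± 0.28 after scaling and did not pass (adjusted p = 0.0555). Rhob, a small GTPase (-0.25), Golm1, a Golgi membrane protein (-0.23), and Bin1, which bends membranes (0.13), did not pass after scaling.

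Members known to be expressed by other brain cells as well were compared with the rest of the list. Of the 18 such members 18 were lower on the CPM scale and 6 after scaling (median -0.21). Of the 19 others 15 were lower on the CPM scale and 12 after scaling, 1 was higher, and the median was -0.43. Over all genes 7.38% were lower on the CPM scale, and after scaling 0.781% were lower and 38.5% higher. The difference between these 2 lists was not tested.

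The 2 Tmem106b backgrounds were then taken apart, since they share no library. With Tmem106b WT, 4 of the 37 members were lower in Grn KO than in Grn WT on the CPM scale, against 0.15% of all genes lower, and these were Slc2a5, Crybb1, Tmem119 and Selplg. Their log2 fold changes were -1.84, -1.79, -1.54 and -1.51, and all 37 members had a negative value with a median of -0.87 (pan-leukocyte genes -0.50). Leaving out 1 library at a time gave 11 without replicate 2 of Tmem106b WT Grn KO and 0 or 1 without each of the others, and marker sums as covariates gave 0. After scaling 9 members were lower and none higher, against 0.103% of all genes lower, with a median of -0.34, and without Grn WT replicates 1 or 2 of that background the count was 5 or 4. With Tmem106b HET, 30 members were lower on the CPM scale, against 6.05% of all genes, with a median of -1.54 (pan-leukocyte genes -1.29). Without replicate 3 of Tmem106b HET Grn KO the count was 14, and with marker sums as covariates it was 0. After scaling 13 were lower and Fcrls was higher (0.61 ± 0.16, edgeR adjusted p = 0.00941), against 0.445% of all genes lower and 36.6% higher, with a median of -0.28. The 9 members lower with Tmem106b WT after scaling were all among the 13 lower with Tmem106b HET, which is 100% of the first list and 69.2% of the second. They were Slc2a5, Crybb1, Sall1, Tmem119, Selplg, Adgrg1, Slco2b1, Csf1r and Vsir. Slc2a5 had -1.28 ± 0.17 with Tmem106b WT and -1.25 ± 0.17 with Tmem106b HET. The test of the difference between backgrounds, the interaction of Tmem106b HET with Grn KO, passed for no member on either scale. The interaction on the CPM scale, taken gene by gene, had a median of -0.66 over the members and -0.69 over the pan-leukocyte genes.

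**Figure D5:**
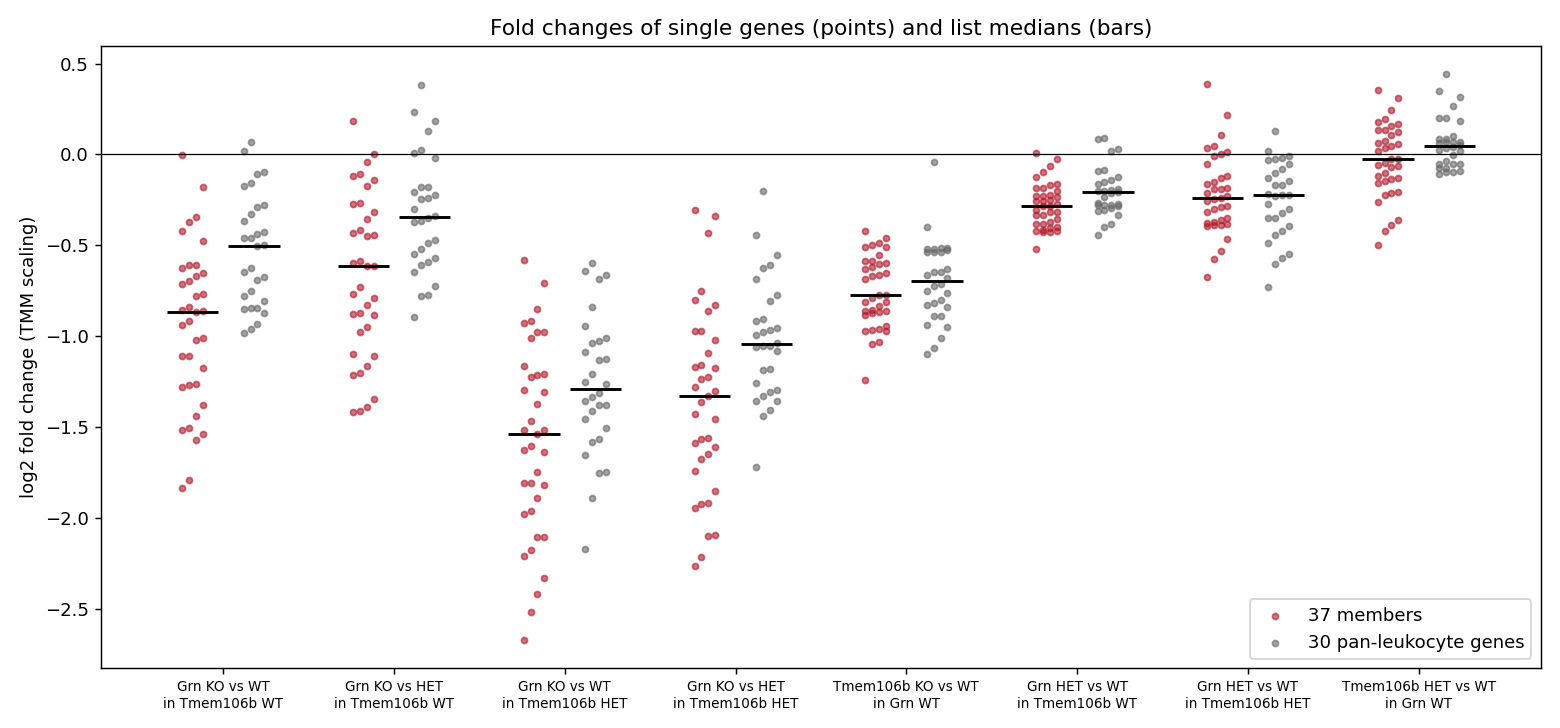
Log2 fold changes on the CPM scale (TMM scaling) of the 37 members (red) and of the 30 pan-leukocyte genes (grey) in 8 comparisons, each point 1 gene and each bar a list median. The members lie below the pan-leukocyte genes in the 4 Grn KO comparisons (medians -0.87 against -0.50, -0.61 against -0.34, -1.54 against -1.29 and -1.33 against -1.04), and beside them in Tmem106b KO (-0.77 against -0.70).

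Grn KO was also set against Grn HET, libraries that keep 1 allele. With Tmem106b WT, Slc2a5 (-1.42 ± 0.32, edgeR adjusted p = 0.0397) and Crybb1 (-1.39 ± 0.29, adjusted p = 0.0198) were lower on the CPM scale, against 0.262% of all genes lower. That count was 5 without replicate 2 of Tmem106b WT Grn KO, 3 without replicate 2 of Tmem106b WT Grn HET, 0 or 1 without each other library and 0 with marker sums as covariates. After scaling 9 members were lower, against 0.14% of all genes. With Tmem106b HET 20 members were lower on the CPM scale, against 2.77% of all genes, and 9 after scaling, against 0.178%. Those CPM calls rested on few libraries, since the count was 2 and 6 without replicates 2 and 3 of Tmem106b HET Grn KO, and 5 and 10 without replicates 2 and 3 of Tmem106b HET Grn HET. On the scaled values it was 4 and 5 without the same Grn HET replicates, and marker sums as covariates gave 0 on both scales. Crybb1 (-2.21 ± 0.36), Slc2a5 (-2.26 ± 0.41) and Selplg (-1.92 ± 0.38) had the smallest p there, with edgeR adjusted p of 0.00596, 0.00742 and 0.0101. After scaling 7 members were lower in both backgrounds, 77.8% of each list, and these were Slc2a5, Crybb1, Sall1, Tmem119, Selplg, Slco2b1 and Csf1r. The Grn KO libraries are the same as in the comparison with Grn WT, so the 2 results are not independent.

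Loss of 1 Grn allele left the members without a difference that passed. Grn HET against Grn WT gave 0 of 37 by edgeR in both Tmem106b backgrounds, with 0 at an unadjusted p under 0.05. The medians were -0.28 with Tmem106b WT (pan-leukocyte genes -0.21) and -0.24 with Tmem106b HET (pan-leukocyte genes -0.22). After scaling they were -0.03 and 0.00. No gene of the 21371 passed in either comparison (0%), and a p that misses the threshold does not show that the groups are alike.

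The Tmem106b comparisons asked whether its loss moved the members where Grn was intact or lowered. In Tmem106b KO against Tmem106b WT, both with Grn WT, 0 of 37 members passed by edgeR, against 0.00468% of all genes. All 37 log2 fold changes were negative. The median was -0.77, and that of the pan-leukocyte genes was -0.70. After scaling the median was -0.03 with 20 of 37 negative. Replicate 2 of that group summed to 19659 CPM over the members, against 85543 to 101386 CPM in the other 3 libraries. Tmem106b HET against Tmem106b WT gave 0 of 37 with Grn KO, with Grn HET and with Grn WT, against 0% of all genes in each, with medians of -0.67, 0.08 and -0.03. With Grn KO the pan-leukocyte genes too had a median of -0.66, and the scaled median of the members was -0.01.

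Other genes of microglial identity, 19 that are not members, were tested in the averaged Grn KO contrast. On the CPM scale 16 of 19 were lower, against 7.38% of all genes. After scaling 7 were lower, against 0.781%, and 1 was higher, against 38.5%. Among those of smallest p were Siglech, a sialic acid receptor (-1.58 ± 0.25, edgeR adjusted p = 0.000467), P2ry12, the purinergic receptor that senses ATP breakdown (-1.46 ± 0.27, adjusted p = 0.00129), and Abi3, an actin regulator (-1.41 ± 0.27, adjusted p = 0.00179). After scaling these 3 stood at -0.66, -0.57 and -0.53 and all passed. P2ry12 had 2044, 1331, 2282 and 1815 CPM in Tmem106b WT Grn KO and 1945, 1032 and 467 CPM in Tmem106b HET Grn KO, against 4203, 2732 and 4999 CPM in Tmem106b WT Grn WT and 3322, 3168, 2448 and 2939 CPM in Tmem106b HET Grn WT. Every Grn KO library was below every Grn WT library of both backgrounds for P2ry12. Serpine2, a protease inhibitor, was higher after scaling (0.82 ± 0.12, adjusted p = 0.000159).

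The ligands of member receptors were measured in the same libraries. Csf1, a ligand of Csf1r, had 164, 146, 179 and 253 CPM in Tmem106b WT Grn KO and 209, 152 and 60.3 CPM in Tmem106b HET Grn KO, against 59.9, 84.9 and 54.7 CPM in Tmem106b WT Grn WT and 83.1, 68.1, 86.6 and 61.9 CPM in Tmem106b HET Grn WT. It was higher on both scales (0.98 ± 0.25, edgeR adjusted p = 0.00958, and 1.88 ± 0.22 after scaling). Il34, the other ligand of Csf1r and known from neurons, had 9.02, 12.8, 7.48 and 13.3 CPM in Tmem106b WT Grn KO and 10, 12.7 and 27.4 CPM in Tmem106b HET Grn KO, against 11.3, 22.7 and 11.9 CPM in Tmem106b WT Grn WT and 7.5, 9.68, 16.9 and 13.1 CPM in Tmem106b HET Grn WT, and did not pass (0.04 ± 0.26). Cx3cl1, the ligand of Cx3cr1 and a gene of neurons, was higher (1.95 ± 0.58, adjusted p = 0.0237), and its 2 highest libraries, at 502 and 470 CPM, were the 2 of highest neuron markers. Tgfb1, the cytokine that upholds microglial identity, was lower on the CPM scale (-1.15 ± 0.29, adjusted p = 0.0102) and did not pass after scaling (-0.31 ± 0.21).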

How the data were processed

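Counts per gene in 26 mouse microglia libraries were deposited by the authors, beside RPKM values that the authors deposited and that served here only to rank levels. Per the labels' protocols, poly(A) RNA was made into SMART-Seq v4 and Nextera XT libraries. Per the submitters' processing notes, reads were aligned with GSNAP to GRCm38. Library totals were 37.6 to 63.7 M counts, and totals of this size limit only the lowest genes. The files give each gene's count; no further normalization of the counts is given in the sources used here. No 2 libraries of 1 group were the same library deposited again, since all 37 pairs differed beyond sampling noise (lowest chi-square 33.8 per gene). This does not show that they came from separate animals. The labels give no replicate numbers, so libraries were numbered within each group in the order of deposit, only as names.

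Counts were fitted in edgeR 4.0.16 (R 4.3.3) with the quasi-likelihood test over all 26 libraries, with group, sex and dissection as terms, TMM scaling and edgeR's filter on low counts (21371 of 52636 genes kept). P-values are two-sided and adjusted by Benjamini-Hochberg over all tested genes, with calls at 0.05. The pan-leukocyte scale repeats the fit with size factors from the median ratio of 30 genes. CPM of single genes use TMM-scaled totals, and sums over a list use plain totals. The mean log2 difference between members and pan-leukocyte genes used a pseudocount of 0.5 CPM. The procedure was tested on simulated data.

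Members and gene lists were chosen with earlier results of these data known. By rule, every library's value is given for the 2 members of smallest p in each role and the 3 of highest fold change in the averaged contrast, and for up to 3 members of smallest p in each other comparison with calls. Of up to 4 other identity genes of smallest p, 1 is not reported here and 3 are named, as are the ligands of member receptors. Csf1r and other members are given by range or fold change. Alternatives were other size factors, DESeq2 1.42.0, other filters, no covariates, marker sums as covariates, Entire libraries only and leaving out each library.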

Additional observations from a re-analysis of the deposited data

Results flagged for a closer look

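In groups of 4 or 5 libraries, Dixon's criterion at the 95% level marked no library in 148 tests of member CPM and none in 4 tests of the difference between members and pan-leukocyte genes. It marked a library in 10 of 148 tests of members after pan-leukocyte scaling and in 6 of 16 tests of marker sums. Some libraries were marked in more than 1 test. Chance marks about 1 in 20 groups.

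After scaling, 2 members stood apart in Tmem106b KO Grn WT replicate 2, the library of highest neuron markers. Mef2a was at 892 there, against 291 to 344 in the rest of its group, and Bin1 was at 1560.0, against 699 to 796. In Tmem106b WT Grn HET replicate 2, Tmem119 was low at 3843, against 4481 to 4733, and Adgrg1 was low at 722, against 925 to 996. Fcrls was high in Tmem106b WT Grn HET replicate 3 at 2106, against 1787 to 1824. In Tmem106b HET Grn WT replicate 1, Slco2b1 was low at 1553, against 1695 to 1723, and Vsir was low at 1511, against 1740.3 to 1756. Mef2c was high in Tmem106b HET Grn WT replicate 4 at 376, against 312 to 322. In Tmem106b WT Grn KO, Ecscr was high in replicate 3 at 96.2, against 68.6 to 69.2, and Runx1 was high in replicate 1 at 98.2, against 83.4 to 84.5.

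Summed neuron markers were 8610.4 CPM in Tmem106b KO Grn WT replicate 2, against 287 to 1229 CPM in the rest of its group. Habenula genes summed to 74.7 CPM in the same library, against 3.06 to 8.40 CPM, and to 26.7 CPM in Tmem106b HET Grn WT replicate 3, against 1.56 to 3.64 CPM. Oligodendrocyte markers reached 10843 CPM for replicate 2 of Tmem106b WT Grn KO, while the rest of that group lay at 1792 to 2078 CPM. The highest such sum of any library, 26664 CPM in Tmem106b HET Grn WT replicate 3, was not marked. After scaling, Bin1 was at 1295 in that library, against 558 to 702 in the rest of its group. Rhob was at 252 there, against 100 to 145, and Fscn1 at 396, against 164 to 229. Adgrg1 was at 1338, against 843 to 985, while Nav3 was at 107, against 118 to 155. Choroid plexus and ependymal markers summed to 424 CPM in Tmem106b HET Grn WT replicate 2, against 17.2 to 42.9 CPM, and to 26677 CPM in Tmem106b WT Grn HET replicate 5, against 73.0 to 4555 CPM. The part of these sums in the members' values was not tested beyond the alternatives given.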

How the results depend on the processing

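No paired analysis was possible because the labels carry no replicate numbers, and the numbers used here only name libraries. Settings with both libraries of highest neuron markers left out, and all alternatives to the pan-leukocyte scale, were chosen after seeing the data. Counts below are of the 37 members, and the cause of each change was not tested. On the CPM scale, Grn KO against Grn WT with Tmem106b WT gave 4 members, and 9 with pan-leukocyte scaling, 14 with DESeq2, 0 without covariates, 0 with marker sums as covariates, 14 with Entire libraries only and 17 without both neuron-high libraries. With Tmem106b HET it gave 30, and 14 with pan-leukocyte scaling, 8 without covariates and 0 with marker sums. Averaged it gave 33, and 19, 19 and 4 under the same 3 settings. Grn KO against Grn HET with Tmem106b WT gave 2, and 9 with pan-leukocyte scaling, 13 with DESeq2, 0 without covariates, 0 with marker sums, 18 with Entire libraries and 17 without both libraries. With Tmem106b HET it gave 20, and 9 with pan-leukocyte scaling, 7 without covariates and 0 with marker sums.

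On the pan-leukocyte scale, marker sums as covariates gave 4 in place of 9 with Tmem106b WT, 2 in place of 14 with Tmem106b HET, 7 in place of 19 averaged and 0 in place of 9 for Grn KO against Grn HET with Tmem106b HET. Entire libraries only, and leaving out both libraries, each gave 14 in place of 9 for Grn KO against Grn HET with Tmem106b WT.

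The members' median minus that of the pan-leukocyte genes was -0.36 for Grn KO against Grn WT with Tmem106b WT (-0.46 without covariates, -0.54 with Entire libraries) and -0.26 averaged (-0.37 without covariates). Against Grn HET it was -0.27 with Tmem106b WT (-0.35 with marker sums) and -0.28 with Tmem106b HET (-0.44 with Entire libraries, -0.35 without both libraries).

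Among members called on the CPM scale, 8 fold changes took the other sign under pan-leukocyte scaling, none of them passing there: with Tmem106b HET, Itgb5 0.024, Bin1 0.38, Mef2a 0.35 and Irf8 0.053, and averaged, Itgb5 0.042, Pros1 0.068, Bin1 0.13 and Mef2a 0.094.

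Leaving out 1 library at a time gave 0 to 11 members in place of 4 for Grn KO against Grn WT with Tmem106b WT on the CPM scale (11 without Grn KO replicate 2, and 0 or 1 without each other library), 14 to 33 with Tmem106b HET (14 without Grn KO replicate 3), 27 to 33 averaged, 0 to 5 against Grn HET with Tmem106b WT and 2 to 19 with Tmem106b HET. On the pan-leukocyte scale it gave 4 to 9 with Tmem106b WT (5 and 4 without Grn WT replicates 1 and 2), 11 to 13 with Tmem106b HET, 15 to 19 averaged, 7 to 10 and 4 to 9 against Grn HET (4 and 5 without Grn HET replicates 2 and 3 of Tmem106b HET), and 0 to 1 for Tmem106b KO (1 without its replicate 4). The median differences ranged over -0.44 to -0.27, -0.34 to -0.25 and -0.32 to -0.23 for Grn KO against Grn WT with Tmem106b WT, with Tmem106b HET and averaged, -0.33 to -0.27 and -0.36 to -0.27 against Grn HET, and -0.10 to 0.0043 for Tmem106b KO. All other comparisons stayed at 0 members. The lowest member counts limit Lag3 and Runx1 most.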
